A study of Ovis aries with 22 samples.

Results

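The 10 genes described here are blood endothelial identity genes, chosen by name out of the 26200 gene symbols in the deposited count tables. They are the receptor tyrosine kinases TEK, TIE1 and KDR, the nitric oxide synthase NOS3, the surface and junction proteins PECAM1, CDH5, ESAM and EMCN, the haemostatic protein VWF and the transcription factor ERG. All 10 were found in the count tables and in the FPKM tables of both sequencing runs, and all 10 passed the filter on low counts. All 10 symbols are listed for sheep in RefSeq (assembly ARS-UI_Ramb_v3.0).

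Expression was measured by RNA sequencing of the sinus wall, the widened base of the great arteries, in sheep (Ovis aries). The tested tissue was autograft sinus from 3 sheep, taken 6 months after a Ross procedure, in which the pulmonary root of an animal is moved to its own aortic position. The native tissues, aortic sinus and pulmonary sinus, came from 4 different sheep, D3 to D6, which each gave both tissues and which the design text calls non-operated. The label of aortic replicate 1, from animal D3, nevertheless gives its treatment as Ross surgery. No strain, age or drug is given in the labels, and the replicates of a group are different animals. Without aortic replicate 1, 2 of the 10 genes were called in autograft against pulmonary sinus and 0 in autograft against aortic sinus, the same counts as with it. The shares of all genes called did change, to 8.69% from 11.3% and to 0.409% from 2.38%. Without both libraries of D3, 7 of the 10 genes and 15.9% of all genes were called against pulmonary sinus. Against aortic sinus it was then 0 of the 10 and 0.743% of all genes.

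Endothelial cells line the lumen of an artery, and they also line the small vessels that feed the outer wall and the lymphatic vessels. Vascular endothelial growth factor (VEGF) acts on them through KDR. Angiopoietins act through TEK, with TIE1 as its partner receptor, and help keep the layer quiescent. NOS3 makes the nitric oxide that relaxes smooth muscle, CDH5 and PECAM1 hold neighbouring cells together, and ERG maintains the expression of many genes of the lineage. A piece of wall contains mostly smooth muscle and matrix cells, so these transcripts are a small share of its RNA.

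The 10 genes together took from 0.0160% of the counts in pulmonary replicate 2 to 0.174% in autograft replicate 2. The libraries held 17380599 to 20741334 counts and 17006 to 17940 detected genes, and a library held 55 to 10187 counts for any of the 10 genes. Levels are given below as CPM, counts brought to a common library size with TMM scaling and not corrected for gene length. Between genes, levels can be compared only in the authors' FPKM, which is per length. On that scale PECAM1 was the most abundant, at 31.2 ± 31.9 FPKM (SD over the 11 libraries), followed by ESAM at 18.7 ± 9.76 and VWF at 18.6 ± 19.1. ERG followed at 11.4 ± 4.65 FPKM, and TEK was the least abundant at 2.62 ± 2.89 FPKM. These SDs are spreads between libraries, in which the genes vary together. They do not show whether 2 neighbours in this order differ within a library, which was not tested. The order is over all libraries pooled. It was not the same in every group, since in pulmonary sinus ESAM, at 17.0 FPKM, lay above PECAM1, at 14.2 FPKM. In bulk tissue, a smaller number of endothelial cells and less RNA per endothelial cell cannot be told apart.

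Most of the 10 genes were high in autograft replicates 2 and 3, intermediate in aortic sinus, and low in autograft replicate 1 and in pulmonary replicates 2 to 4. Autograft replicate 2 was the highest of the 11 libraries for all 10 genes. The lowest library was autograft replicate 1 for 5 genes, pulmonary replicate 2 for 4 genes and pulmonary replicate 3 for 1 gene. Pulmonary replicate 1 lay inside the range of the 4 aortic libraries for all 10 genes, whereas pulmonary replicates 2 and 4 did so for 0 genes and pulmonary replicate 3 for 2 genes. These libraries stand apart from others of their own group, and the results without them are given below.

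**Figure D1:**
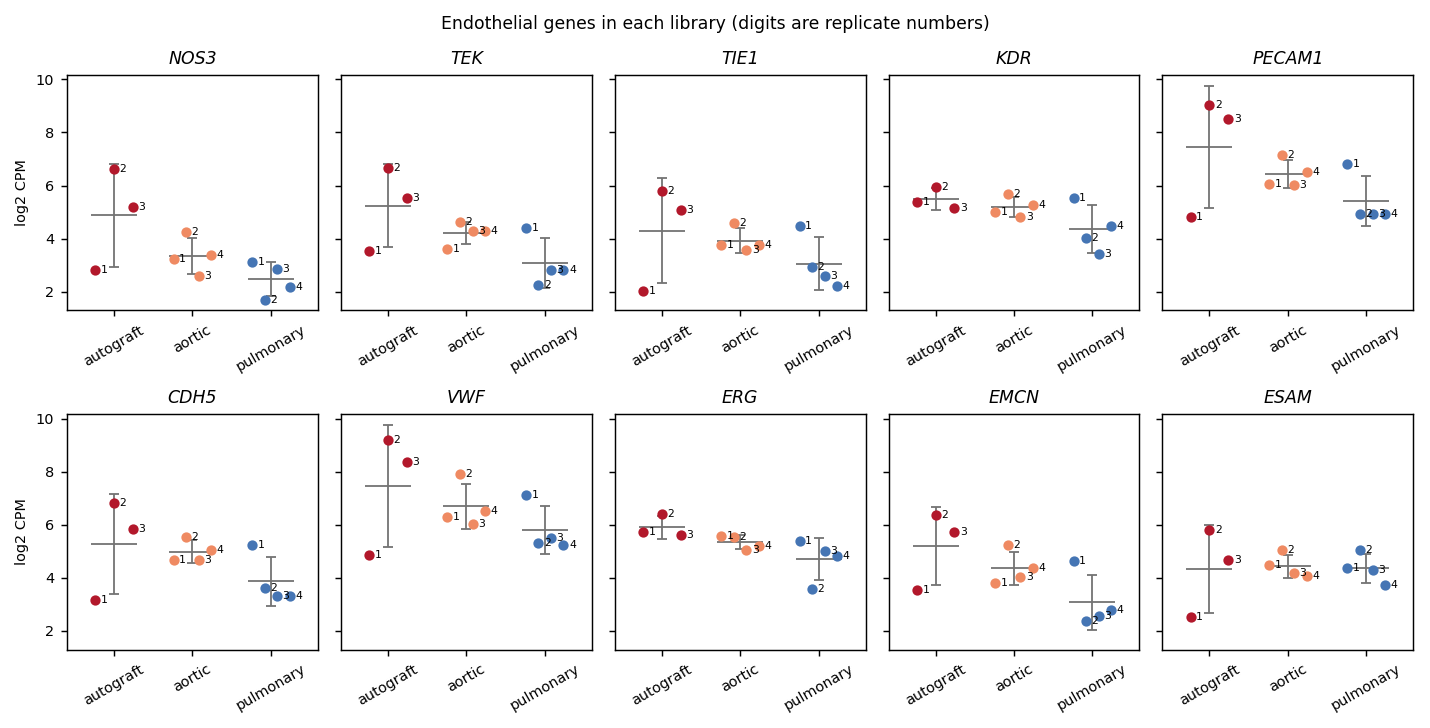
Log2 CPM of the 10 genes in each library, with autograft sinus on the left, aortic sinus in the middle and pulmonary sinus on the right of each panel. Points are libraries with their replicate numbers, and grey marks are the mean and SD of the group (n = 3, 4 and 4). Autograft replicate 2 is the highest point in all 10 panels, and autograft replicate 1 lies far below it in 8 of them, the exceptions being KDR and ERG.

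TEK (TIE2), the receptor for angiopoietins, had 11.5, 100.3 and 46.6 CPM in the autograft libraries, 12.2, 24.7, 19.6 and 19.3 CPM in aortic sinus, and 21.2, 4.68, 6.89 and 6.86 CPM in pulmonary sinus. Autograft replicates 2 and 3 were above every native library, while autograft replicate 1 lay inside the pulmonary range and below the aortic one. TEK rose against pulmonary sinus, with a log2 fold change of 2.41 ± 0.65 (SE) and an adjusted p of 0.0382 in edgeR's quasi-likelihood test. Against aortic sinus the log2 fold change was 1.48 ± 0.63, with an adjusted p of 0.192.

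TIE1, the partner receptor of TEK, had 3.99, 54.9 and 33.8 CPM in the autograft libraries, 13.5, 24.1, 11.9 and 13.4 CPM in aortic sinus, and 22.4, 7.54, 5.90 and 4.52 CPM in pulmonary sinus. The same autograft libraries were high, but autograft replicate 1 was the lowest of all 11, so the groups overlapped. Against pulmonary sinus the log2 fold change was 1.62 ± 0.72, with an adjusted p of 0.153.

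KDR, the main signalling receptor for VEGF, had 41.6, 61.4 and 35.3 CPM in the autograft libraries, 32.1, 51.7, 28.1 and 37.9 CPM in aortic sinus, and 46.0, 16.0, 10.6 and 22.1 CPM in pulmonary sinus. KDR differed less among the autograft libraries than TEK and TIE1, and autograft replicate 1 was not low for it. Its log2 fold change was 0.96 ± 0.42 against pulmonary sinus, with an adjusted p of 0.145, and 0.30 ± 0.42 against aortic sinus.

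NOS3, the endothelial nitric oxide synthase, had 6.86, 99.5 and 36.4 CPM in the autograft libraries, 9.34, 18.8, 5.91 and 10.3 CPM in aortic sinus, and 8.53, 3.14, 7.12 and 4.46 CPM in pulmonary sinus. Autograft replicates 2 and 3 were above every native library, and autograft replicate 1 fell inside both native ranges. NOS3 had the largest difference of the 10 genes: it averaged 47.6 ± 47.3 CPM in autograft sinus (SD, n = 3) and 5.81 ± 2.45 CPM in pulmonary sinus (SD, n = 4), a log2 fold change of 3.03 ± 0.70 with an edgeR adjusted p of 0.0245. Against aortic sinus, at 11.1 ± 5.46 CPM, the log2 fold change was 2.10 ± 0.68, with an adjusted p of 0.111.

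PECAM1 (CD31), an adhesion protein of endothelium, platelets and leukocytes, had 27.7, 521 and 365 CPM in the autograft libraries, 66.2, 141, 64.6 and 91.2 CPM in aortic sinus, and 113, 30.2, 30.6 and 30.4 CPM in pulmonary sinus. Autograft replicate 1 was the lowest of all 11 libraries and the other autograft libraries were the highest, so that the autograft range enclosed both native ranges. For PECAM1 the log2 fold change was 2.58 ± 0.77 against pulmonary sinus, with an adjusted p of 0.0542, and 1.75 ± 0.76 against aortic sinus, with an adjusted p of 0.1998.

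CDH5 (VE-cadherin), the adherens junction protein of endothelium, had 8.83, 113 and 57.0 CPM in the autograft libraries, 25.4, 47.1, 25.4 and 33.4 CPM in aortic sinus, and 38.1, 12.05, 9.84 and 9.89 CPM in pulmonary sinus. It followed PECAM1 library by library, with autograft replicate 1 again the lowest. Its log2 fold change was 1.77 ± 0.69 against pulmonary sinus, with an adjusted p of 0.111, and 0.86 ± 0.68 against aortic sinus.

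EMCN (endomucin), a sialoglycoprotein of the endothelial surface, had 11.5, 81.7 and 53.2 CPM in the autograft libraries, 13.9, 37.5, 16.2 and 20.8 CPM in aortic sinus, and 24.5, 5.02, 5.81 and 6.80 CPM in pulmonary sinus. Autograft replicate 1 was below the aortic libraries and above pulmonary replicates 2 to 4. EMCN had a log2 fold change of 2.21 ± 0.68 against pulmonary sinus, with an adjusted p of 0.0567.

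ESAM, a tight junction adhesion protein of endothelium and platelets, had 5.62, 56.2 and 25.3 CPM in the autograft libraries, 22.02, 32.9, 18.1 and 16.6 CPM in aortic sinus, and 20.3, 33.2, 19.4 and 13.3 CPM in pulmonary sinus. The aortic and pulmonary libraries covered the same range, and pulmonary replicate 2, the lowest library for 4 of the other genes, was the highest pulmonary library for ESAM. The log2 fold change of 0.43 ± 0.57 against pulmonary sinus had an adjusted p of 0.643, and its direction turned in 6 of the alternative settings listed at the end.

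VWF (von Willebrand factor), which endothelial cells store and release to bind platelets, had 29.1, 593 and 328 CPM in the autograft libraries, 78.1, 245, 65.4 and 91.8 CPM in aortic sinus, and 140, 39.5, 45.3 and 37.96 CPM in pulmonary sinus. It had the widest range in the autograft group, where the highest library was 20.4 times the lowest. VWF had a log2 fold change of 2.27 ± 0.82 against pulmonary sinus, with an adjusted p of 0.0898, and of 1.40 ± 0.80 against aortic sinus.

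ERG, the ETS transcription factor of the lineage, had 52.7, 84.9 and 48.4 CPM in the autograft libraries, 47.2, 46.9, 33.0 and 36.9 CPM in aortic sinus, and 42.4, 11.9, 32.0 and 28.4 CPM in pulmonary sinus. It was the only one of the 10 genes for which all 3 autograft libraries were above all 8 native ones. The margin was narrow, since the lowest autograft library had 48.4 CPM and the highest native library 47.2 CPM. For ERG the log2 fold change was 1.11 ± 0.34 against pulmonary sinus, with an adjusted p of 0.0575, and 0.60 ± 0.34 against aortic sinus, with an adjusted p of 0.320. Groups without overlap in this direction occurred in 10.9% of all genes for autograft against pulmonary sinus and in 9.77% for autograft against aortic sinus.

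**Figure D2:**
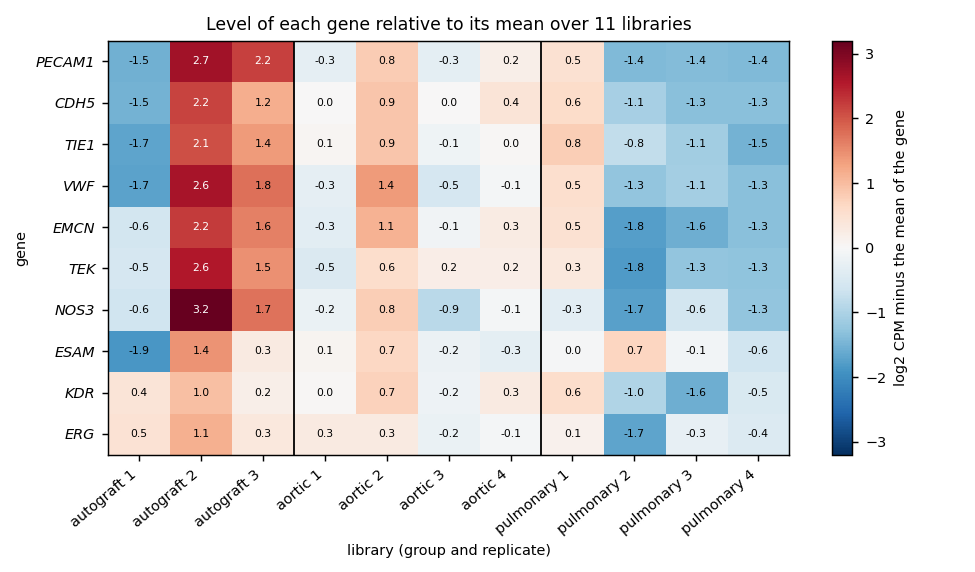
Log2 CPM of each gene minus its mean over the 11 libraries, for the 3 autograft, 4 aortic and 4 pulmonary libraries from left to right. Red is above the mean of the gene and blue below it. In autograft replicate 1, KDR and ERG are red and the other 8 genes are blue, and pulmonary replicate 1 is red or near white for all but NOS3.

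The comparison of autograft with pulmonary sinus sets the moved root beside native tissue of its own origin. NOS3 and TEK rose, and the other 8 genes did not pass the threshold of an adjusted p under 0.05 over all 14979 genes tested (edgeR quasi-likelihood, Benjamini-Hochberg). Over all genes, 6.05% were called higher, 5.29% lower and 11.3% in either direction. All 10 log2 fold changes were above 0, as were 50.1% of all genes, and 9 of 10 had an unadjusted p under 0.05, against 30.6% of all genes. Their median log2 fold change was 1.99, against 0.00 over all genes. It was 1.18 without autograft replicate 2. Their SEs ran from 0.34 for ERG to 0.82 for VWF, against a median of 0.23 over all genes. Since the 10 genes move together across libraries, the 10 values do not amount to 10 independent observations.

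Both calls depended on single libraries. Leaving out autograft replicate 2, or pulmonary replicate 2, 3 or 4, left 0 of the 10 genes called, and leaving out autograft replicate 3, aortic replicate 3 or aortic replicate 4 left NOS3 alone. Without autograft replicate 1, 7 genes were called, namely NOS3, TEK, TIE1, PECAM1, CDH5, VWF and EMCN, and the share of all genes called fell to 7.76%, against 11.3% with all libraries. Without pulmonary replicate 1, 9 genes were called, but 18.5% of all genes were called too, and without both libraries of animal D3 there were 7 genes and 15.9%. Without autograft replicate 2 the share was 2.97%. DESeq2 called 20% of all genes and 5 of the 10, NOS3, TEK, PECAM1, EMCN and ERG, while limma-voom called 10.9% of all genes and ERG alone of the 10, with an adjusted p of 0.117 for NOS3 and 0.0820 for TEK. Adding to limma-voom a block by animal for the native libraries left 0 genes called, with adjusted p-values of 0.121 for NOS3, 0.0852 for TEK and 0.0519 for ERG, against 0.0492 for ERG without the block.

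**Figure D3:**
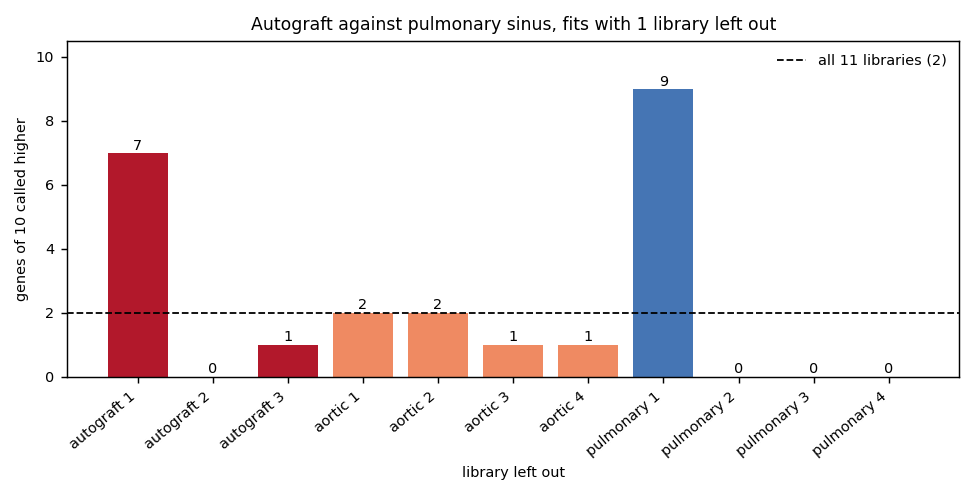
Number of the 10 endothelial genes called higher in autograft than in pulmonary sinus (vertical axis) in fits that each leave out the library named on the horizontal axis, coloured by its group. The dashed line marks the 2 genes called with all 11 libraries. The count runs from 0 to 9, and the highest bars are those for autograft replicate 1, at 7, and pulmonary replicate 1, at 9.

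The comparison of autograft with aortic sinus sets it beside the native tissue of its new position. Here 0 of the 10 genes were called by edgeR, against 2.38% of all genes, 0.948% higher and 1.43% lower. An unadjusted p under 0.05 was reached by 3 genes, NOS3, TEK and PECAM1, and by 23.0% of all genes. DESeq2 called NOS3 alone of the 10 genes and 9.81% of all genes. Limma-voom called 0 of the 10 and 2.56% of all genes. The log2 fold changes lay between 0.30 for KDR and 2.10 for NOS3, with a median of 1.06, and all 10 were above 0, as were 50.1% of all genes. That median was 0.44 without autograft replicate 2, 0.68 with limma-voom and 0.66 or 0.63 with FPKM at a pseudocount of 0.1 or 1. Leaving out autograft replicate 1 brought NOS3 under the threshold, with an adjusted p of 0.0387, in a fit that called 1.12% of all genes.

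Between aortic and pulmonary sinus of the same 4 animals, no gene was called. EdgeR called 0 of the 10 genes and 0 genes in all, so that 0.0% of all genes were called, as did DESeq2 and limma-voom. In the edgeR fit, which did not use the pairing by animal, an unadjusted p under 0.05 was reached by 0 of the 10 genes and by 306 of all genes, or 2.04%. The edgeR fit blocked by animal had 598 of 14305 genes under 0.05 and also 0 calls. The log2 fold changes lay between 0.05 for ESAM and 1.07 for EMCN, with a median of 0.85 and SEs of 0.32 to 0.75, and 50.8% of all genes were above 0. That median was 1.46 without pulmonary replicate 1, 1.58 without both libraries of D3 and 0.49 without aortic replicate 2. Taken animal by animal, the median log2 difference of the 10 genes was -0.65 in D3, 2.09 in D4, 1.04 in D5 and 1.37 in D6. Aortic sinus was thus higher for 9, 8 and 10 genes in D4, D5 and D6 but for 3 genes in D3, the animal of pulmonary replicate 1.

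The comparisons share libraries, so their values for a gene are not independent of each other. For NOS3 the log2 fold changes were 3.03 for autograft against pulmonary sinus, 2.10 for autograft against aortic sinus and 0.93 for aortic against pulmonary sinus. For ERG they were 1.11, 0.60 and 0.52 in the same order, and for KDR 0.96, 0.30 and 0.66.

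**Figure D4:**
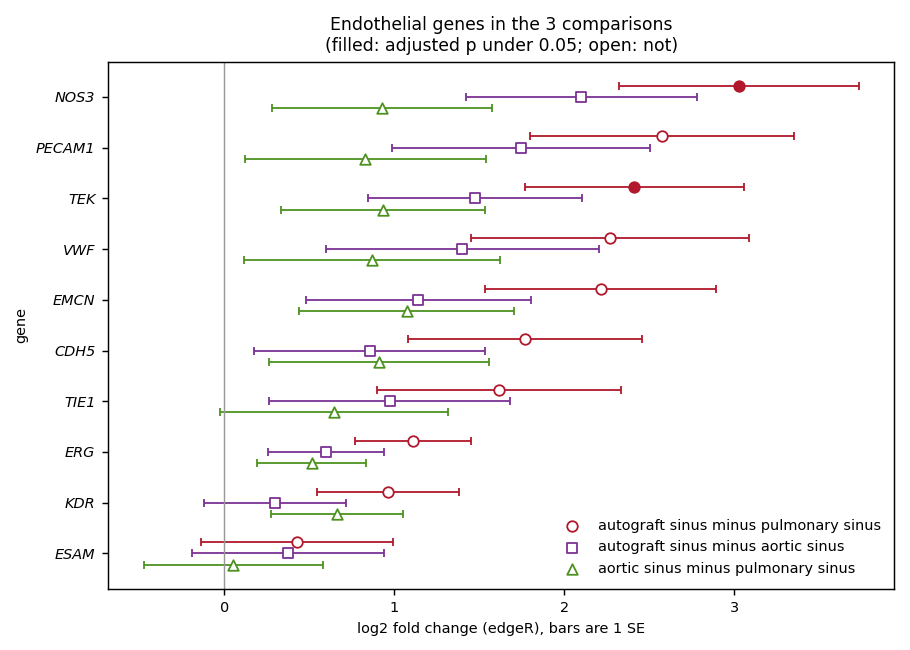
Log2 fold change of each gene from the edgeR fit (horizontal axis, bars are 1 SE) in autograft against pulmonary sinus (circles), autograft against aortic sinus (squares) and aortic against pulmonary sinus (triangles). Filled symbols passed an adjusted p under 0.05. All 30 values are above 0, and the 2 filled symbols are NOS3 and TEK in autograft against pulmonary sinus.

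The unevenness between animals of a group was larger for these genes than for most. In autograft sinus the SD of log2 CPM over the 3 libraries had a median of 1.78 over the 10 genes, against 0.30 over all genes tested. It was 0.45 against 0.23 in aortic sinus, and 0.91 against 0.28 in pulmonary sinus. The SD was in the top 10% of all genes for 8 of the 10 genes in autograft sinus, for 1 in aortic sinus and for 7 in pulmonary sinus. The median ratio of the highest to the lowest library was 11.2 in autograft sinus, 2.02 in aortic sinus and 3.79 in pulmonary sinus, while over all genes it was 1.48, 1.44 and 1.54.

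The genes were not equally uneven. In autograft sinus the highest library was 20.4 times the lowest for VWF, 18.8 times for PECAM1 and 14.5 times for NOS3. It was 1.75 times for ERG and 1.74 times for KDR. EdgeR's biological coefficient of variation, estimated across all 3 groups, ran from 0.321 for ERG to 0.703 for VWF, with a median of 0.599 against 0.225 over all genes. Between the 2 runs of a library, in contrast, the CPM ratio of these genes lay between 0.747 and 1.48, with a median of 0.998.

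The 10 genes varied together within groups. Over the 11 libraries, after each value was taken relative to its group mean, Pearson's r between 2 of the genes had a median of 0.83 over the 45 pairs and was above 0.9 for 17 of them. These correlations describe points that share libraries and depth, and no p is given for them. TIE1 and CDH5 were the most alike, at an r of 0.988, and PECAM1 followed CDH5 at 0.986. TEK was closest to EMCN, at 0.965, and NOS3 to VWF, at 0.942.

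ERG, KDR and ESAM followed the others least. Their r with the mean of the other 9 genes was 0.48 for ERG, 0.55 for KDR and 0.76 for ESAM, against 0.92 to 0.99 for the remaining 7 genes. The lowest r of any pair was 0.085, between ERG and ESAM. ERG and KDR parted most from the rest in autograft replicate 1, where their log2 CPM exceeded the mean of the other 9 by 2.10 and 1.72. For ERG this excess was also 1.02 in aortic replicate 1 and 1.42 and 1.31 in pulmonary replicates 3 and 4. ESAM exceeded the mean of the other 9 by 1.65 in pulmonary replicate 2.

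Many other genes tracked the 10 across the libraries. Of 9959 further genes with a mean of at least 5 CPM, 88 had an r above 0.9 with the mean deviation of the 10. The closest was ADCY4, an adenylate cyclase, at an r of 0.993, with 25.5 CPM in autograft sinus, 12.8 CPM in aortic sinus and 7.90 CPM in pulmonary sinus on average. CYYR1 followed at 0.990, then FLT1, a VEGF receptor, at 0.988. The endothelial matrix glycoprotein MMRN2 reached 0.983, FAM110D 0.981, the secreted endothelial protein EGFL7 0.980, the scaffold protein SHANK3 0.979, the scavenger receptor SCARF1 0.978 and the sphingosine 1-phosphate receptor S1PR1 0.976. The lowest r belonged to the transcription factor GTF2I at -0.963, then ABCC5 at -0.951, ABI2 at -0.942, ABCB10 at -0.939 and ZMYM3 at -0.938.

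Genes of the pathways around the 10 were read from lists that do not hold the 10 genes themselves. The counts of each list stand beside 6.05% of all genes called higher and 5.29% called lower in autograft against pulmonary sinus. A single call is too few to set a list apart from these shares. The list named angiopoietin and TIE signalling also holds the angiopoietin-like proteins ANGPTL1 and ANGPTL2. Of its 7 genes, 1 rose in autograft against pulmonary sinus and 0 fell, with a median log2 fold change of 1.18. The angiopoietins of the list, ANGPT1, ANGPT2 and ANGPT4, were not called, and neither was PTPRB. The riser was the angiopoietin-like protein ANGPTL2, at 176, 179 and 70.3 CPM in the autograft libraries, 82.4, 84.1, 47.6 and 72.1 CPM in aortic sinus, and 79.7, 45.6, 57.8 and 67.2 CPM in pulmonary sinus. It was not low in autograft replicate 1, unlike TEK and TIE1. The antagonist ligand ANGPT2 averaged 4.50 ± 3.88 CPM in autograft sinus and 1.17 ± 0.69 CPM in pulmonary sinus, with an adjusted p of 0.0854. SVEP1, a matrix protein of the same list, had 146, 132 and 115 CPM in the autograft libraries and 113, 22.7, 21.8 and 41.3 CPM in pulmonary sinus, with an adjusted p of 0.0811.

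Of 10 VEGF ligands, receptors and co-receptors other than KDR, 1 rose in autograft against pulmonary sinus and 0 fell, with a median log2 fold change of 0.61. The co-receptor NRP1 had 125, 157 and 131 CPM in the autograft libraries, 72.2, 104, 74.6 and 98.0 CPM in aortic sinus, and 90.7, 50.9, 95.9 and 79.4 CPM in pulmonary sinus. Its autograft libraries were all above its native ones. Such separation occurred in 10.9% of all genes against pulmonary sinus and in 9.77% against aortic sinus. The log2 fold change of NRP1 against pulmonary sinus was 0.80 ± 0.21, with an adjusted p of 0.0367. FLT1, which tracked the 10 genes closely, averaged 17.4 ± 14.8 CPM in autograft sinus and 3.92 ± 2.52 CPM in pulmonary sinus, with an adjusted p of 0.0550. The ligand VEGFA averaged 10.2 ± 2.62 CPM in autograft sinus and 7.59 ± 4.66 CPM in pulmonary sinus, with an adjusted p of 0.503.

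Of 13 genes of nitric oxide synthesis and relay, 1 rose, 1 fell and the median log2 fold change was -0.04 in autograft against pulmonary sinus. NOSTRIN, a trafficking protein that binds NOS3, had 7.14, 20.2 and 12.6 CPM in the autograft libraries, 5.48, 6.35, 3.04 and 4.297 CPM in aortic sinus, and 4.86, 1.37, 1.22 and 1.72 CPM in pulmonary sinus. The autograft libraries were above all native ones, with replicate 2 again the highest. Separation in this direction occurred in 10.9% of all genes against pulmonary sinus and in 9.77% against aortic sinus. The log2 fold change of NOSTRIN against pulmonary sinus was 2.54 ± 0.51, with an adjusted p of 0.0157. CAV1, the caveolar coat protein that holds NOS3 inactive and is also abundant in smooth muscle, had 96.7, 146 and 154 CPM in the autograft libraries, 142, 249, 201 and 184 CPM in aortic sinus, and 226, 199, 245 and 255 CPM in pulmonary sinus. It fell by 0.81 ± 0.21 on the log2 scale against pulmonary sinus, with an adjusted p of 0.0327.

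Of 12 further junction and adhesion genes, 1 rose and 0 fell in autograft against pulmonary sinus, with a median log2 fold change of 0.36. ICAM2, a leukocyte ligand of resting endothelium, was scarce, at 0.619, 2.97 and 3.07 CPM in the autograft libraries and 0.621, 0.742, 0.328 and 0.457 CPM in pulmonary sinus. Among 23 endothelial receptors and surface genes, 2 rose and 0 fell, and the median was 1.51. Over all genes, 6.05% were called higher and 5.29% lower, so the counts of both lists are near those shares. S1PR1, which supports barrier function, had 20.4, 211 and 162 CPM in the autograft libraries, 32.0, 72.2, 27.9 and 38.2 CPM in aortic sinus, and 49.3, 19.1, 15.4 and 20.0 CPM in pulmonary sinus. It thus had the low autograft replicate 1 and the high pulmonary replicate 1 of PECAM1 and CDH5. The BMP receptor ACVRL1 averaged 82.2 ± 33.8 CPM in autograft sinus and 35.7 ± 11.8 CPM in pulmonary sinus.

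Of 18 endothelial transcription factors other than ERG, 1 rose and 2 fell in autograft against pulmonary sinus, with a median log2 fold change of 0.72. FLI1, the ETS factor closest to ERG, had 29.4, 52.7 and 33.1 CPM in the autograft libraries, 23.1, 33.3, 22.3 and 30.9 CPM in aortic sinus, and 26.1, 17.1, 21.8 and 23.8 CPM in pulmonary sinus. As for ERG, autograft replicate 1 was not low, and the log2 fold change against pulmonary sinus was 0.79 ± 0.23, with an adjusted p of 0.0474. FOXC2, a forkhead factor of lymphatic and mesenchymal cells, fell in both autograft comparisons, at 39.4, 32.1 and 42.6 CPM in the autograft libraries, 70.1, 74.2, 77.8 and 77.3 CPM in aortic sinus, and 72.1, 70.7, 70.3 and 43.6 CPM in pulmonary sinus. MECOM, a zinc finger factor of arterial endothelium, fell by 0.47 ± 0.12 on the log2 scale against pulmonary sinus, with an adjusted p of 0.0368.

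Of 10 genes of haemostasis and endothelial activation other than VWF, 3 rose and 0 fell in autograft against pulmonary sinus, with a median log2 fold change of 1.55. Over all genes, 6.05% were called higher and 5.29% lower. The vasoconstrictor peptide gene EDN1 had 7.20, 123 and 46.8 CPM in the autograft libraries, 2.79, 9.15, 5.62 and 4.83 CPM in aortic sinus, and 7.57, 0.856, 3.04 and 2.001 CPM in pulmonary sinus. It resembled NOS3 in its high autograft replicate 2, and its log2 fold change of 4.13 ± 0.86 had an adjusted p of 0.0177. The protein C receptor PROCR had 35.2, 68.1 and 39.4 CPM in the autograft libraries, 18.1, 22.4, 15.7 and 20.1 CPM in aortic sinus, and 24.01, 8.68, 12.9 and 19.2 CPM in pulmonary sinus. All 3 autograft libraries were above all native ones for PROCR, with a log2 fold change of 1.55 ± 0.32 and an adjusted p of 0.0171 against pulmonary sinus. Separation in this direction occurred in 10.9% of all genes against pulmonary sinus and in 9.77% against aortic sinus. The leukocyte ligand ICAM1, which other activated cells also make, had 32.7, 77.7 and 106 CPM in the autograft libraries and 25.0, 7.48, 6.61 and 12.7 CPM in pulmonary sinus, with an adjusted p of 0.0292.

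Of 15 arterial, venous and capillary subtype genes, 1 rose and 0 fell in autograft against pulmonary sinus, with a median log2 fold change of 1.32. That gene was the capillary carbonic anhydrase CA4, which had 0.394, 25.2 and 2.27 CPM in the autograft libraries and 0.565, 0.228, 0.234 and 0.457 CPM in pulmonary sinus, with autograft replicate 2 far above the other libraries. Among 7 lymphatic endothelial genes, 1 rose and 0 fell, and the median was -0.23. It was PDPN, a surface protein that fibroblasts and mesothelium also make, at 56.4, 29.0 and 43.8 CPM in the autograft libraries, 10.6, 9.30, 13.0 and 11.2 CPM in aortic sinus, and 12.1, 5.65, 5.06 and 8.46 CPM in pulmonary sinus. PDPN was highest in autograft replicate 1, whereas all 10 endothelial genes were highest in autograft replicate 2.

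In autograft against aortic sinus, these 9 lists held 1 called riser, PDPN, with an adjusted p of 0.0170, and 1 called faller, FOXC2, with an adjusted p of 0.0275. Over all genes, 0.948% were called higher and 1.43% lower in that comparison. Aortic against pulmonary sinus had 0 calls in any list. The call of PDPN against pulmonary sinus held in all 11 fits that left out 1 library. That of NOSTRIN was lost without autograft replicate 2, at an adjusted p of 0.0554, and those of EDN1 and PROCR without autograft replicate 2 or pulmonary replicate 3, at up to 0.0637 and 0.0600. The other 11 calls named above against pulmonary sinus were each lost when autograft replicate 2, pulmonary replicate 2 or pulmonary replicate 3 was left out, and in 3 to 10 of the 11 fits. In the limma-voom fit blocked by animal, the calls of ANGPTL2, ICAM2, S1PR1, FLI1, EDN1 and CA4 against pulmonary sinus were lost, at adjusted p-values of 0.0558, 0.116, 0.113, 0.0597, 0.0820 and 0.241 in that order. The limma-voom fit without the block had lost the same 6 calls. Against aortic sinus, the call of PDPN was lost without aortic replicate 3, at an adjusted p of 0.0503, and that of FOXC2 in 6 of 11 fits, those without autograft replicate 1 or 2 or any aortic library.

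Markers of other cell types moved with the 10 genes in some libraries. The mean log2 CPM of the 10 genes was 3.84, 6.86 and 5.97 in the autograft libraries, 4.65, 5.56, 4.53 and 4.84 in aortic sinus, and 5.11, 3.57, 3.73 and 3.66 in pulmonary sinus. The 9 adipocyte markers averaged 2.03, 5.41 and 4.65 in the autograft libraries and 4.01, 1.43, 1.62 and 2.14 in pulmonary sinus. Their aortic means were 3.87, 4.65, 2.01 and 3.77. The 7 lymphatic endothelial markers averaged 1.68, 4.71 and 3.8 in the autograft libraries and 5.36, 3.26, 2.04 and 2.62 in pulmonary sinus. Their aortic means were 4.03, 4.90, 4.91 and 4.50. By these means, both lists were low in autograft replicate 1 and high in pulmonary replicate 1, as the 10 genes were. Aortic replicate 3, the lowest aortic library for the 10 genes, was not low for the lymphatic markers. In autograft against aortic sinus the lymphatic markers had a median log2 fold change of -1.19, against 1.06 for the 10 genes. The lymphatic markers were not uniform in autograft replicate 1. PROX1, FLT4, CCL21, RELN and MMRN1 were at their lowest of all libraries there. LYVE1 and PDPN were at their highest, at 80.0 and 56.4 CPM. Pulmonary replicate 1 lay 1.10 above its group mean on the log2 scale for the 10 genes, 1.14 for the T and natural killer cell markers, 0.99 for the adventitial fibroblast markers and 0.98 for the macrophage markers. The part of these lists in the results was not tested. Summed over the list, the adipocyte markers ranged from 74.0 to 1015 CPM in autograft sinus, from 107 to 528 CPM in aortic sinus and from 104 to 309 CPM in pulmonary sinus, and 0 of them were at 0 in a whole group. The lymphatic markers ranged from 127 to 260 CPM in autograft sinus, from 150 to 343 CPM in aortic sinus and from 28.9 to 524 CPM in pulmonary sinus. Their lowest autograft sum was that of replicate 3, and replicate 1 had 141 CPM.

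Within groups, the mean deviation of a list correlated with that of the 10 genes at an r of 0.919 for adipocyte markers and 0.875 for lymphatic markers. FABP4, which capillaries express too, is in the adipocyte list. The r was 0.986 for endothelial receptors and surface genes, 0.981 for subtype genes, 0.955 for haemostasis, 0.931 for the VEGF list, 0.926 for transcription factors, 0.909 for junction genes, 0.778 for angiopoietin and TIE signalling and 0.681 for the nitric oxide list. Lists of other wall cells followed the 10 genes less, with an r of 0.067 for macrophage, 0.289 for smooth muscle, 0.312 for adventitial fibroblast, 0.491 for T and natural killer cell, -0.396 for pericyte and -0.444 for valve and mesothelium. For Schwann cell and nerve it was 0.523, for platelet and red cell 0.445 and for cardiomyocyte 0.0033. In autograft replicate 1, the valve and mesothelial markers were 2.39 above their group mean in log2 CPM and the smooth muscle markers 0.44 below theirs. The 4 mesothelial and valve markers summed to 114 CPM in that library and to between 8.75 and 11.3 CPM in the other autograft libraries.

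**Figure D5:**
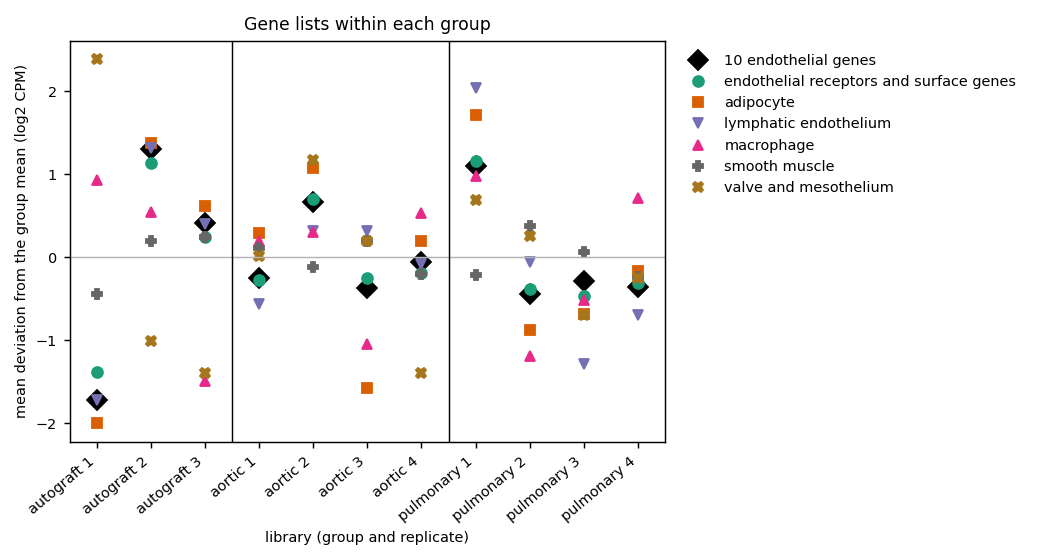
Mean deviation of each gene list from its group mean (vertical axis, log2 CPM) in each library of autograft, aortic and pulmonary sinus, from left to right. Black diamonds are the 10 endothelial genes and coloured symbols are lists of other genes. Adipocyte and lymphatic markers lie near the 10 genes in autograft replicate 1 (-2.0 and -1.72) and pulmonary replicate 1 (1.71 and 2.04), while valve and mesothelial markers lie at 2.39 in autograft replicate 1.

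The lists of other cells also held calls. Beside them, 6.05% of all genes were called higher and 5.29% lower in autograft against pulmonary sinus. Single calls in a list are too few to set that list apart from these shares. In autograft against pulmonary sinus, 8 of 10 T and natural killer cell genes, 4 of 10 macrophage genes and 4 of 9 adventitial fibroblast genes rose and 0 of each fell. Of 9 smooth muscle genes, 5 fell and 0 rose, and of 6 pericyte genes, 1 fell. Of the 9 adipocyte genes, the lipoprotein lipase gene LPL rose and the perilipin gene PLIN4 fell. Of 3 platelet and red cell genes tested, the platelet receptor gene GP1BA rose, at 0.787, 5.71 and 2.16 CPM in the autograft libraries, against 0.0565, 0, 0.562 and 0.114 CPM in pulmonary sinus. Of 7 cardiomyocyte genes, MYH7 fell, and of 7 Schwann cell and nerve genes and 4 valve and mesothelial genes, 0 were called by edgeR, with an unadjusted p under 0.05 for 2 and 3 of them. T and natural killer cell genes summed to 52.1 to 71.4 CPM in autograft sinus, 7.10 to 14.5 CPM in aortic sinus and 2.80 to 10.4 CPM in pulmonary sinus. These leukocytes and platelets also make PECAM1, and platelets also make VWF and ESAM; the part of these cells in the levels of the 3 genes was not tested.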

How the data were processed

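Per the labels' protocols, TRIzol was used for the RNA and a TruSeq kit for the libraries. Tools named in the submitters' processing notes, without their roles, are featureCounts 1.5.3, STAR 2.5.2b, Bowtie2 2.3.3.1 and cutadapt. Reads of overlapping or antisense genes cannot be separated (build, annotation and strand setting: not given in the sources used here). The authors deposited raw counts per gene symbol, with 1 table for each of 2 sequencing runs. The authors also deposited FPKM tables, whose values are never 0, even at 4505 raw counts of 0 in run 1. These were used as an alternative and for levels between genes.

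The 22 sample entries are 11 libraries with 2 runs each. Chi-square per gene was 1.38 to 1.51 between runs of a library and 30.1 to 105 between libraries of a group, so runs were added and counted as 1 sample. The unnamed row, at most 0.000602% of the counts, was left out. Genes passing filterByExpr by group (14979) entered 1 edgeR quasi-likelihood fit with TMM scaling and no block, and a call is a Benjamini-Hochberg adjusted p under 0.05 over all of them. Log2 CPM has a prior count of 2. Software was DESeq2 1.42.0, limma 3.58.1 and edgeR 4.0.16 in R 4.3.3, and the fits were tested on simulated data.

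The native libraries are paired by animal, which the labels name. Deviations of its 2 libraries from their group means correlated across genes at -0.18 in D3, -0.13 in D4, 0.43 in D5 and 0.45 in D6. The fit blocked by animal, an alternative, used limma-voom with a random block for the autograft comparisons and edgeR with a fixed block for the native one. Other alternatives were the scaling, the filter, DESeq2, limma-voom, FPKM, single runs, the 2 groups alone and leaving out libraries.

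The 10 genes and all lists were chosen with earlier results of these data known. Named genes were the 10, up to 4 called genes of each list (for lists without calls up to 2 by p), and the 10 highest and 5 lowest by r with the mean of the 10. The result of 1 of these genes is not reported here. ANGPT2 and VEGFA were named in addition after their values were seen. RefSeq names matched 18717 of 26200 symbols.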

Additional observations from a re-analysis of the deposited data

Results flagged for a closer look

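In groups of 4 libraries, a gene was singled out when its highest or lowest library lay so far from the nearest of the others that Dixon's 95% critical value was passed. This occurred in 8 of 20 groups, and in all 8 the far library was the highest. The rule was applied to CPM and not to log2 CPM, on which high values stand out less. Its rate of about 1 in 20 groups by chance holds for normally distributed values. Whether CPM meet that was not tested, so the 8 cannot be set against this rate. The 8 are not separate events, since the genes vary together. Pulmonary replicate 1 was the far library for 6 genes, at 21.2 CPM for TEK, 22.4 CPM for TIE1, 113 CPM for PECAM1, 38.1 CPM for CDH5, 140 CPM for VWF and 24.5 CPM for EMCN. The nearest other pulmonary library had 6.89 CPM for TEK, 7.54 CPM for TIE1, 30.6 CPM for PECAM1, 12.05 CPM for CDH5, 45.3 CPM for VWF and 6.80 CPM for EMCN. Aortic replicate 2 was the far library for TIE1, at 24.1 CPM against 13.5 CPM in the nearest, and for VWF, at 245 CPM against 91.8 CPM in the nearest. The autograft group of 3 libraries is too small for this rule.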

How the results depend on the processing

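In autograft against pulmonary sinus the count of the 10 genes called was 2, and it became 5 with DESeq2, 1 with limma-voom, 1 with FPKM at a pseudocount of 1 or of 0.1, 0 with the 2 groups alone, 7 without animal D3 and 0 to 9 when 1 library was left out. With run 1 alone it was 3, namely ERG, NOS3 and TEK. With FPKM at a pseudocount of 1 and a minimum mean FPKM of 1 it was 2, but these were ERG and NOS3. Without autograft replicate 1 and pulmonary replicate 1 together, an alternative chosen after seeing the data because of how these libraries lie, it was 9. In that fit 14.6% of all genes were called. In autograft against aortic sinus the count of the 10 genes called was 0. It became 1 with DESeq2, 0 to 1 when 1 library was left out and 6 without the 2 libraries together, where 2.63% of all genes were called. In aortic against pulmonary sinus it stayed at 0 in every setting run. Over all genes, autograft against pulmonary sinus had 1699 calls, 2997 with DESeq2, 479 with the 2 groups alone and 452 to 2753 with 1 library left out, the lowest without autograft replicate 2 and the highest without pulmonary replicate 1. Autograft against aortic sinus had 356 calls, 1469 with DESeq2, 110 without animal D3 and 25 to 576 with 1 library left out, the lowest without autograft replicate 2, the highest without pulmonary replicate 1 and 61 without aortic replicate 1. Aortic against pulmonary sinus had 0 calls over all genes throughout. The causes were not tested.

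ESAM was the only one of the 10 genes whose log2 fold change turned sign. Against pulmonary sinus it was -0.040 with limma-voom, -0.49 to 0.90 when 1 library was left out, the lowest without autograft replicate 2, -0.015 with FPKM at a pseudocount of 1, with or without a minimum mean FPKM of 1, and -0.054 at 0.1. Autograft against aortic sinus gave -0.13 with limma-voom, -0.52 to 0.87 with 1 library left out, -0.073 with FPKM at 1, with or without that minimum, and -0.12 at 0.1. Aortic against pulmonary sinus gave -0.21 to 0.34 with 1 library left out, with -0.21 without aortic replicate 2, -0.0012 without pulmonary replicate 3 and -0.12 without pulmonary replicate 4.

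With the replicate block by animal, in limma-voom, the count of the 10 genes called in autograft against pulmonary sinus was 0, and ESAM was at -0.041 there and at -0.13 in autograft against aortic sinus. Set beside limma-voom without the block, the one call of the 10 genes that changed was that of ERG.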
